A study of Sus scrofa with 27 samples.

Results

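Complex I genes of the nucleus carry symbols that begin with NDUF. In the count files of mural granulosa cells (GCs), 42 pig Ensembl identifiers had such a symbol, and the 41 whose counts averaged 5 or more across the libraries are described here, out of 11384 genes tested. They are 6 core subunits, 26 accessory subunits, 8 assembly factors named NDUFAF, and NDUFA4, which carries the name but is now assigned to complex IV. NDUFA4L2, the paralog of NDUFA4, fell under the minimum, and NDUFS7, NDUFA3, NDUFA12, NDUFB3 and NDUFV3 were not analysed here because no identifier in the table carried their symbol.

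The GCs came from primiparous TN70 sows, a cross of Large White and Norwegian Landrace. Full-fed (FF) sows received 6.5 kg of feed per day and feed-restricted (RES) sows 3.25 kg per day over the last 2 weeks of lactation, and ovaries were taken on day 2 after weaning, when both groups were fed alike. Sows with the lowest weight loss were chosen from the FF group and those with the highest from the RES group, so that the groups differ in feed and in this choice. The paper also reported smaller ovaries and smaller sampled follicles in RES sows, so the groups differ in follicle size too. Cells lining the inner wall of the largest healthy follicle were cut out by laser capture microdissection, and 13 FF and 14 RES libraries, each from a different sow, were sequenced. Since each library is a bulk sample, fewer cells of a type and less RNA per cell cannot be told apart.

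Complex I, NADH:ubiquinone oxidoreductase, is the largest enzyme of the respiratory chain. It takes electrons from NADH, passes them along a row of iron-sulfur clusters to ubiquinone, and pumps protons across the inner mitochondrial membrane. The core subunits carry out this catalysis and are shared with bacteria. Accessory subunits surround and stabilise the core, while the assembly factors help to build the enzyme and leave before it is finished. In GCs, mitochondria supply ATP and also hold the first step of steroid synthesis.

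Total counts per library lay between 12299220 and 16021200 for FF sows and between 12942198 and 18120922 for RES sows. The library of FF sow 10 stood apart, with the lowest FF value in 31 of the 41 NDUF genes and in 28 of the 32 subunits. According to the sample records FF sow 9 was left out, while in the study's list the poorest RNA is that of FF number 10. The identity of FF sow 10 and its place in the quality groups described next are therefore uncertain. If the numbers match, this library came from the poorest RNA of the study. Values without it stand beside several results that it moved. By the share of bases read at good quality, the libraries were divided at a gap into an upper quality group of 7 FF and 7 RES sows and a lower one of 6 FF and 7 RES sows, with FF sow 10 in the lower one. RES sows 3 and 5 had the lowest read quality of all. The 6 granulosa markers summed to 70700 to 122000 normalized counts in FF GCs (median 92200) and 73900 to 146000 in RES GCs (median 103000), and none of them was at 0. Normalized counts are the deposited counts divided by DESeq2's size factors.

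The starts of several NDUF genes hold letters that match sites of known regulators of mitochondrial genes. In all, 4 such motifs were searched on both strands, from 250 bases before to 50 bases after each gene start in the RefSeq annotation of Sscrofa11.1, for 41 NDUF genes and 19509 protein-coding genes in all. The site of NRF1, nuclear respiratory factor 1, was taken as GCGC, then any base, then TGCGC, and was found in 5 NDUF genes (12.2%) and in 6.32% of all genes. All 5 encode subunits, and NDUFA8 is among the genes called higher in RES GCs. The letters read as this motif or as its reverse complement. The lines give 30 bases around each match on the strand of the gene, with the matched letters in capitals.
NDUFA8 (chr1:262258139-262258168, minus strand): tgccgccgctGCGCATGCGCagacgctagg
NDUFA9 (chr5:65788688-65788717, minus strand): ttcccaattgGCGCCTGCGCagacggccga
NDUFB4 (chr13:139730584-139730613, minus strand): aaagtaccttGCGCATGCGCagatcgctac
NDUFB10 (chr3:40005619-40005648, minus strand): cgtccgttctGCGCAGGCGCggccgccggc
NDUFS6 (chr16:79000050-79000079, minus strand): cgaccgcaccGCGCATGCGCgcctcccagg

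A second motif, AAGATGGC, a site of YY1, was present in 5 NDUF genes (12.2%) and in 2.48% of all genes. In 3 of the 5, NDUFA6, NDUFB8 and NDUFC1, the ATG inside these letters is the annotated start of translation. NDUFB8 is shown because it had the smallest adjusted p of the NDUF genes, and NDUFAF8 because it was the only assembly factor with a match to any of the motifs.
NDUFA6 (chr5:6562077-6562106, plus strand): gtttatttagcAAGATGGCggcgagcggac
NDUFB8 (chr14:111633529-111633558, minus strand): ggaagaaggtgAAGATGGCggcggccaagg
NDUFC1 (chr8:87695277-87695306, plus strand): cccagtccggcAAGATGGCggcgtccgcgt
NDUFAF8 (chr12:1519429-1519458, minus strand): gggaagaggccggacctAAGATGGCggcgc
NDUFA9 (chr5:65788924-65788953, minus strand): gctGCCATCTTggctctcagccagtcactg

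The letters CCGGAAGT, an ETS site bound by GABP, were found in NDUFA10, NDUFB7, NDUFS1 and NDUFV1, which is 9.76% of the NDUF genes beside 4.69% of all genes. TNAAGGTCA, a site of estrogen-related receptors, was in none of the 41 windows and in 0.923% of all. Of the genes called below, NDUFAB1 and NDUFAF5 held none of the 4 motifs. The 250 bases before the start had a median GC content of 60.0% for subunits, 58.6% for NDUFAF genes and 57.6% over all genes. A match describes letters only and is not a binding site.

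Across the NDUF genes, levels were slightly higher in RES than in FF GCs, but few single genes passed the test. The log2 fold change of RES relative to FF (log2FC) was above 0 in 39 of the 41 genes, beside 47.3% of all genes tested, and in all 32 subunits. Its median was 0.24 for the subunits and 0.17 for the NDUFAF genes, beside −0.02 for all genes. With edgeR's quasi-likelihood test and Benjamini-Hochberg adjustment over all genes, 4 NDUF genes were called, all of them higher in RES GCs. Of all genes, 8.29% were called higher, so a count of 4 among 41 is near the background. DESeq2 called 5 beside 9.55% of all genes higher, and voom in limma, which here weights libraries by quality, called 12 beside 14.5%. With the replicate number as a block 7 were called beside 6.16%, and with read GC percentage as covariate 8 beside 9.29%. Single libraries moved the count too, to 9 without RES sow 7 (11.0% of all genes), 9 without RES sow 10 (9.64%), 7 without FF sow 1 (8.34%) and 7 without FF sow 3 (8.56%). At an unadjusted p under 0.05 stood 14 of the 41 and 3420 of all 11384 genes. The ranges of FF and RES sows overlapped in all 41, as they did in all but 1 of the 11384 genes (0.00878% without overlap).

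**Figure D1:**
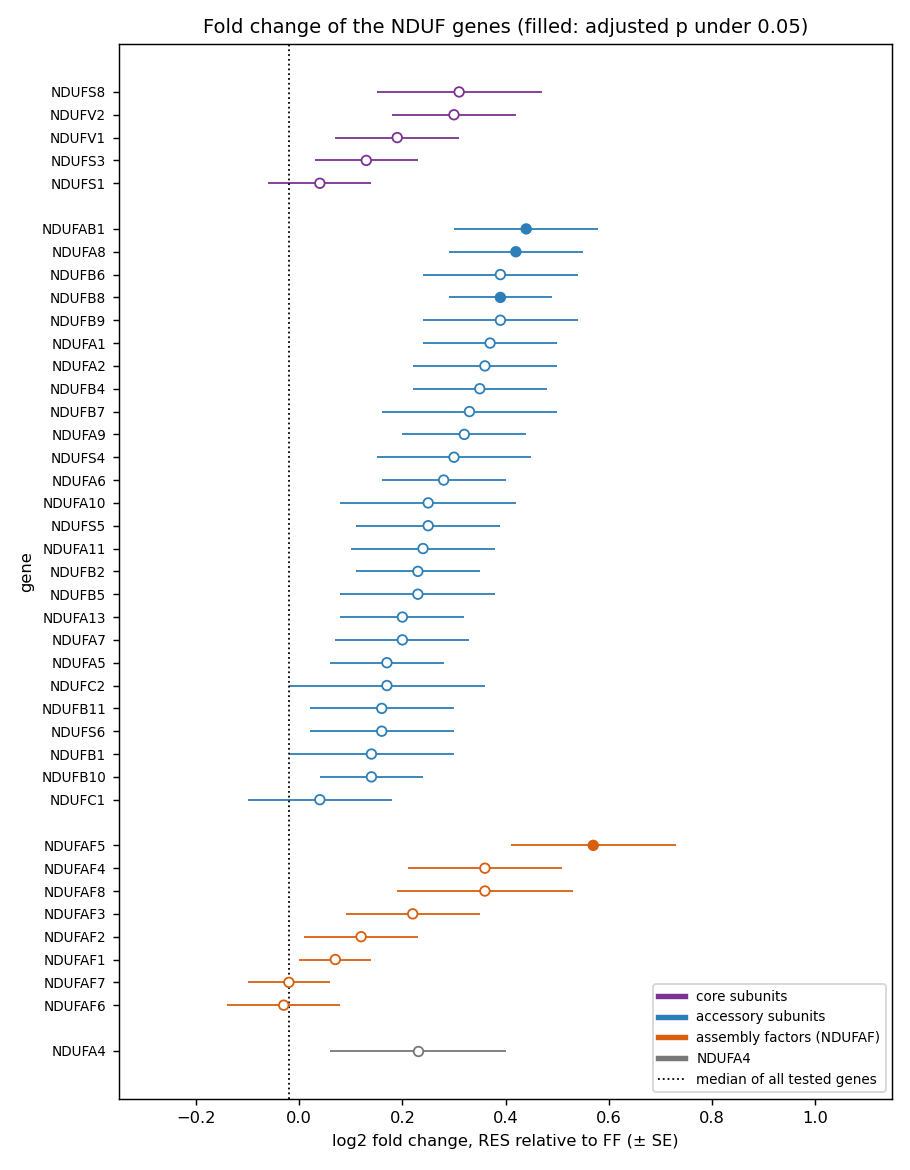
Log2FC of 40 NDUF genes in RES relative to FF GCs (horizontal axis, bars ± SE from edgeR), grouped into core subunits, accessory subunits, assembly factors and NDUFA4. Filled points have an adjusted p under 0.05, the dotted line is the median of all tested genes, and 38 of the 40 points drawn lie above 0 with 4 filled.

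NDUFB8, an accessory subunit of the membrane arm, lies at chr14:111626827-111633548 on the minus strand (ENSSSCG00000006166). Its lowest, median and highest normalized counts were 323, 518 and 708 in FF GCs and 522, 702 and 1020 in RES GCs. All 14 RES sows lay above the FF median, although 2 FF sows lay above the RES median. FF sows averaged 524 ± 103 (SD, n = 13) and RES sows 710 ± 147 (SD, n = 14), for a log2FC of 0.39 (SE 0.10) at an adjusted p of 0.0109 in edgeR. By quality group it was 0.37 (upper, SE 0.12) and 0.42 (lower, SE 0.17), or 0.32 in the lower group without FF sow 10.

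NDUFA8, which faces the intermembrane space and is held in shape by disulfide bonds, lies at chr1:262243225-262258186 on the minus strand (ENSSSCG00000005528). FF values ran from 201 over a median of 490 to 616, and RES values from 417 over 705 to 907. Of the RES sows, 9 exceeded the highest FF sow, and no FF sow exceeded the RES median. The log2FC of 0.42 (SE 0.13) had an adjusted p of 0.0270 in edgeR, with means of 492 ± 115 (SD, n = 13) and 677 ± 156 (SD, n = 14). By quality group it was 0.43 (upper, SE 0.14) and 0.40 (lower, SE 0.21), the latter 0.25 without FF sow 10. Its exons share 54 bases with MORN5 on the opposite strand, and the counting named no strand.

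NDUFAB1 is the mitochondrial acyl carrier protein, bound in both arms of complex I and also needed for lipoic acid and iron-sulfur cluster synthesis (chr3:22619458-22631575, plus strand, ENSSSCG00000010795). Its FF values spanned 291 to 949 with a median of 626, and its RES values 511 to 1290 with a median of 925. Of the RES sows, 11 of 14 lay above the FF median and 7 above the highest FF sow, and 1 FF sow lay above the RES median. The means were 649 ± 160 (SD, n = 13) and 908 ± 243 (SD, n = 14), for a log2FC of 0.44 (SE 0.14, adjusted p = 0.0301, edgeR). This call was lost on leaving out any of 4 RES sows, those numbered 1, 3, 6 and 9, with an adjusted p of up to 0.0565 in edgeR. By quality group it was 0.51 (upper, SE 0.16) and 0.36 (lower, SE 0.20), and without FF sow 10 the lower value was 0.22.

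NDUFAF5 is an assembly factor that hydroxylates an arginine of the core subunit NDUFS7 (chr17:22480344-22508804, plus strand, ENSSSCG00000007076). Lowest, median and highest values were 83.7, 135 and 193 in FF GCs and 81.9, 222 and 298 in RES GCs. RES sow 7 was the lowest of all, yet 9 RES sows were above every FF sow. With means of 138 ± 37.0 (SD, n = 13) and 211 ± 64.5 (SD, n = 14), its log2FC of 0.57 (SE 0.16, adjusted p = 0.0178, edgeR) was the largest of the 41. In the quality groups it was 0.68 (SE 0.20, upper) and 0.44 (SE 0.22, lower), with 0.35 in the lower group once FF sow 10 was left out. NDUFB8, NDUFA8 and NDUFAF5 were called in each of the 27 fits that left out 1 library.

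**Figure D2:**
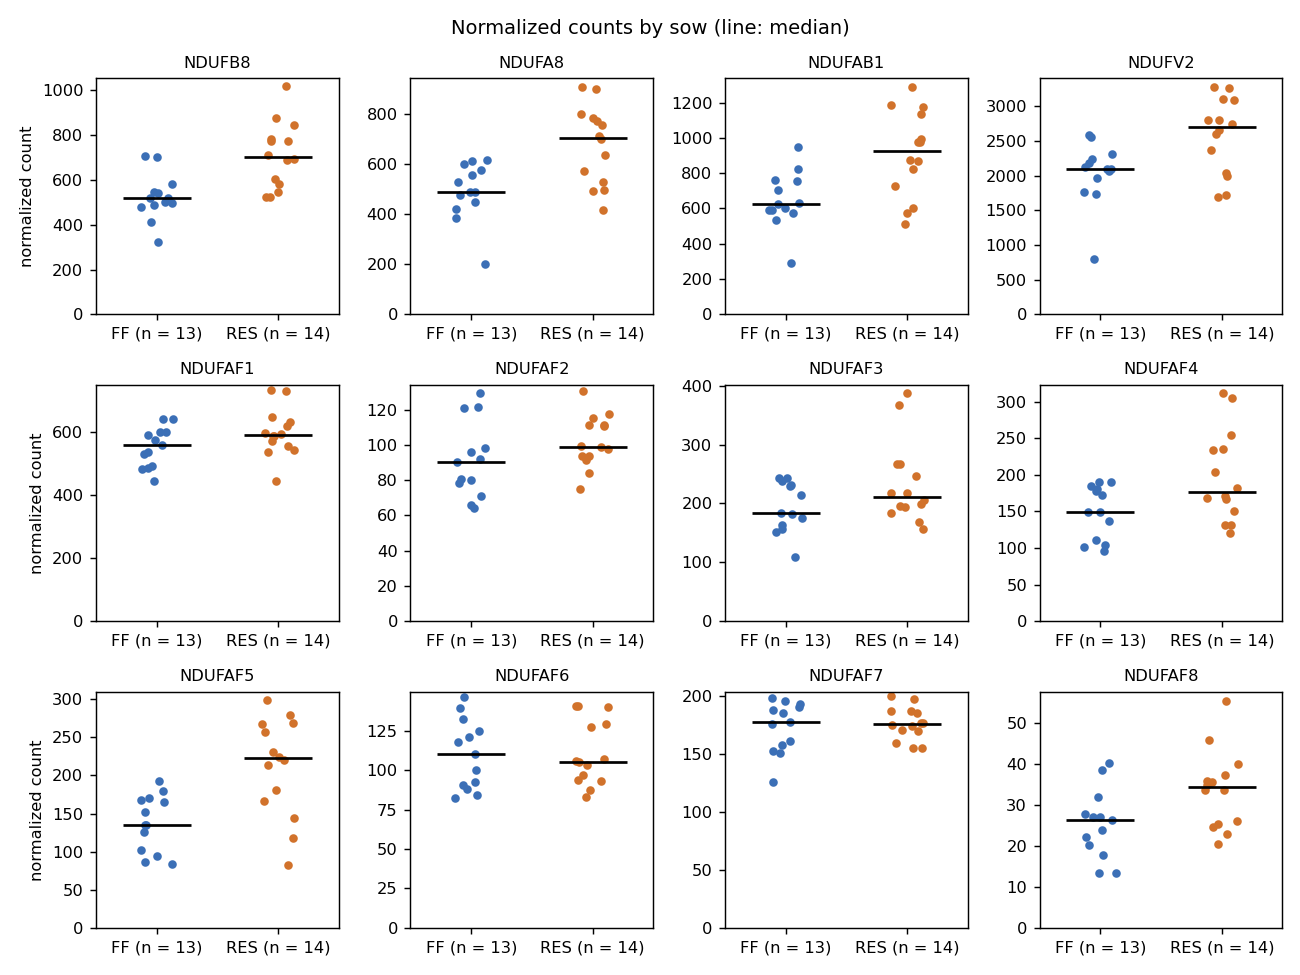
Normalized counts (vertical axes, starting at 0) of 3 called subunits, the core subunit NDUFV2 and the 8 NDUFAF genes, with 1 point per sow and a line at the median of 13 FF or 14 RES sows. The FF and RES points overlap in every panel, and in NDUFAF5 9 RES sows lie above the highest FF sow.

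The core subunits encoded in the nucleus form the arm that reaches into the matrix. With edgeR none of the 6 was called, 1 had an unadjusted p under 0.05, DESeq2 called none and voom called 1. These counts are at or near the shares of all genes, which were 8.29% called higher with edgeR, 9.55% with DESeq2 and 14.5% with voom, and 3420 of 11384 unadjusted. The gene called by voom was NDUFV2, an iron-sulfur protein beside the NADH site. NDUFV2 ran from 799 to 2590 in FF GCs (median 2100) and from 1690 to 3280 in RES GCs (median 2700). Although 9 RES sows were above the highest FF sow, the log2FC of 0.30 (SE 0.12) had an adjusted p of 0.0975 in edgeR.

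NDUFS8, which carries iron-sulfur clusters on the way to ubiquinone, had FF values of 73.2 to 165 (median 115) and RES values of 95 to 371 (median 129). The high RES end came from sow 3. Its log2FC was 0.31 (SE 0.16), and 0.14 without that sow. NDUFV1, the subunit that binds NADH, ranged from 61.8 to 105 in FF and from 62.2 to 151 in RES GCs, with medians of 79.8 and 90.6 and a log2FC of 0.19 (SE 0.12). The groups overlapped over most of their range in both genes.

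NDUFS3 had medians of 386 in FF (211 to 537) and 430 in RES GCs (355 to 670), at a log2FC of 0.13 (SE 0.10). NDUFS1, the largest of the iron-sulfur subunits, had medians of 1400 (780 to 1770) and 1350 (1050 to 2180), at 0.04 (SE 0.10). For NDUFS1 only 6 of 14 RES sows lay above the FF median. NDUFS3 shares 162 exonic bases with KBTBD4 on the opposite strand.

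Among the 26 accessory subunits, log2FC values ran from 0.04 in NDUFC1 to 0.44 in NDUFAB1, and NDUFAB1, NDUFA8 and NDUFB8 were called. Those nearest to the threshold without a call were NDUFA1, with an adjusted p of 0.0605 at 0.37 (SE 0.13), and NDUFB6, with 0.0713 at 0.39 (SE 0.15), both from edgeR. NDUFA1 was called by DESeq2, and both were called by voom. NDUFA1 spanned 199 to 657 normalized counts in FF (median 474) and 397 to 849 in RES GCs (median 623), with 6 RES sows above the highest FF sow. NDUFB6 spanned 168 to 617 (median 413) and 323 to 762 (median 622), with 8 RES sows above the highest FF sow. NDUFA1 shares 215 exonic bases with RNF113A on the opposite strand, so its counts are uncertain.

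By family, the median log2FC was 0.28 over 11 NDUFA subunits, 0.28 over 10 NDUFB subunits and 0.16 over 7 NDUFS subunits. It was 0.24 over both NDUFV subunits and 0.11 over both NDUFC subunits. By place in the enzyme it was 0.28 over the 7 accessory subunits of the matrix arm and 0.24 over the 18 of the membrane arm. These medians were not tested against each other. NDUFS4, a matrix arm subunit known from Leigh syndrome, had the highest counts of any subunit, with FF values of 1040 to 5470 (median 3830) and RES values of 3080 to 6920 (median 4980). Its log2FC of 0.30 (SE 0.15) was not called, with an adjusted p of 0.170 in edgeR. Without FF sow 10 the median over the 32 subunits was 0.20, and 30 of them stayed above 0. Without RES sows 3 and 5 it was 0.21, all 32 were above 0, and NDUFB6 was called beside the same 4 genes.

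The log2FC values of the 8 NDUFAF genes ran from −0.03 to 0.57, and 6 were above 0. NDUFAF5 was called, 1 of 8 beside the 8.29% of all genes called higher. At an unadjusted p under 0.05 stood 3 of 8, beside 3420 of all 11384 genes, so both counts are near the background. NDUFAF4, which works with NDUFAF3 early in assembly, ran from 95.9 to 190 in FF (median 150) and from 120 to 312 in RES GCs (median 176), and 6 RES sows were above the highest FF sow. Its log2FC was 0.36 (SE 0.15, adjusted p = 0.104, edgeR), and voom called it. In all, voom called 2 of the 8 beside 14.5% of all genes higher, and DESeq2 called 1 beside 9.55%. NDUFAF3 ran from 109 to 244 (median 184) and from 157 to 387 (median 211), at 0.22 (SE 0.13).

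NDUFAF8, a partner of NDUFAF5, had the lowest counts among them, with a median of 26.3 in FF (13.3 to 40.3) and of 34.4 in RES GCs (20.4 to 55.5), at a log2FC of 0.36 (SE 0.17, adjusted p = 0.151, edgeR). Counts of this size carry a large counting error. NDUFAF2, which stays on a late intermediate, had medians of 90.3 (64.4 to 130) and 99.0 (74.9 to 131), at 0.12 (SE 0.11). NDUFAF1, which joins ECSIT in building the membrane arm, had medians of 557 (446 to 642) and 590 (444 to 734), at 0.07 (SE 0.07). In these 3 genes the groups overlapped widely.

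NDUFAF6 and NDUFAF7 were the only NDUF genes below 0. NDUFAF6, which acts early in assembly, had medians of 110 (82.3 to 146) and 105 (82.9 to 141), and NDUFAF7, a methyltransferase of complex I assembly, had medians of 177 (126 to 198) and 175 (155 to 199). Their log2FC values were −0.03 (SE 0.11) and −0.02 (SE 0.08), and in each only 5 of 14 RES sows lay above the FF median. Both turned to above 0 when all identifiers, with and without a symbol, set the scaling. NDUFAF1 shares 738 exonic bases with NUSAP1 and NDUFAF7 663 with PRKD3 on the opposite strand, so the values of these 2 genes are uncertain. NDUFA4 ran from 824 to 5320 (median 3390) in FF and from 2440 to 5700 (median 3950) in RES GCs, at 0.23 (SE 0.17), and a pseudogene of it lies on chromosome 13.

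The order of levels differed from the order of changes. Per kilobase of the longest RefSeq transcript, mean normalized counts of the subunits in FF GCs ran from 29.7 ± 8.26 in NDUFA10 to 2430 ± 680 in NDUFS4 (SD, n = 13). NDUFV2 at 2370 ± 521, NDUFC1 at 2310 ± 599 and NDUFB4 at 2070 ± 530 followed, and these levels were not tested against each other. Core subunits were spread over this range on the same per-kilobase scale, with NDUFV1 at 51.3 ± 8.95 and NDUFS8 at 122 ± 26.6 far under NDUFV2. The NDUFAF genes lay between 13.8 ± 4.55 in NDUFAF8 and 271 ± 59.6 in NDUFAF3. RefSeq transcripts may be longer or shorter than those of these cells, which would shift a level per length.

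Sows differed in the same direction over most subunits. For each sow, the log2 normalized counts (with 1 added) of the 32 subunits were set against their mean over all sows and averaged. This deviation ran from −1.17 (sow 10) to 0.24 in FF GCs (median −0.08) and from −0.24 to 0.58 in RES GCs (median 0.23). In the RES group 5 sows, those numbered 4, 5, 7, 10 and 14, lay below 0. RES sows 4, 7 and 10 held the lowest RES value in 11, 14 and 7 of the 41 genes, and RES sow 3 the highest in 16. For the 8 NDUFAF genes the deviation ran from −0.43 to 0.14 in FF (median −0.10) and from −0.30 to 0.33 in RES GCs (median 0.20). The groups overlapped for both.

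**Figure D3:**
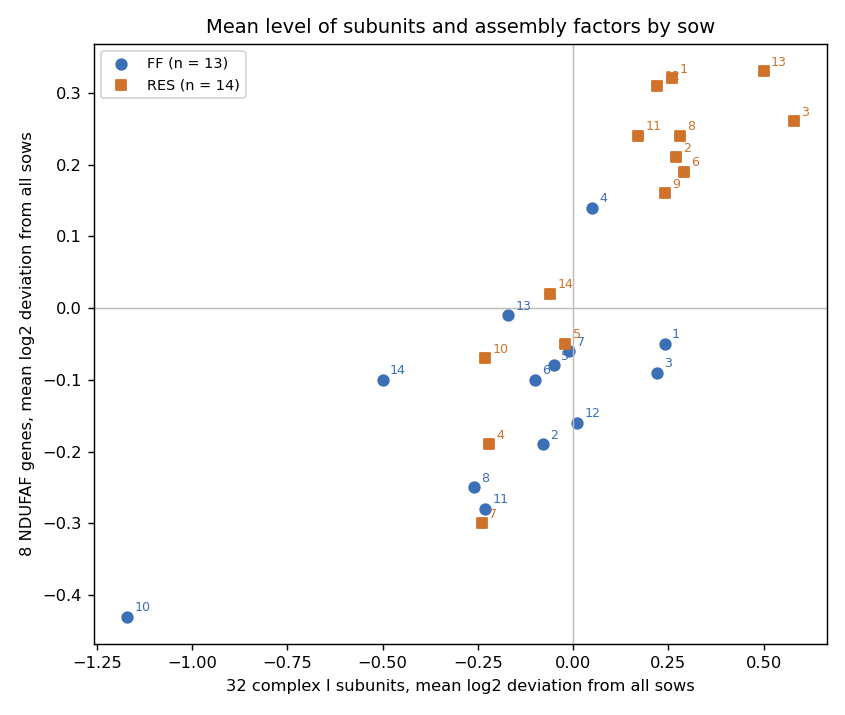
Mean log2 deviation from all sows of the 32 complex I subunits (horizontal axis) and of the 8 NDUFAF genes (vertical axis), with 1 point per sow, labelled by sow number. FF sow 10 lies at −1.17 and −0.43, and RES sow 3 lies farthest to the right, at 0.58.

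In both quality groups the median log2FC of the 32 subunits was above 0. It was 0.19 (upper) and 0.39 (lower), with 27 and 32 of the 32 subunits above 0, and that of the NDUFAF genes was 0.08 and 0.24. Without FF sow 10 the lower group had a median of 0.25 over the subunits, 30 of them above 0, and of 0.21 over the NDUFAF genes. In the upper group the same 4 genes were called as in all sows, beside 9.83% of all genes called higher there. In the lower group none was called, as 0.00878% of all genes were called higher there. At an unadjusted p under 0.05 stood 8 of the 41 beside 12.2% of all genes, and 1 of the 41 beside 11.6% without FF sow 10. The interaction of diet and quality group was below an adjusted p of 0.05 in none of the 41 or of all genes in edgeR. At an unadjusted p under 0.05 it stood for 12.3% of all genes and for 1 NDUF gene, NDUFB11, with log2FC values of −0.11 (upper) and 0.42 (lower) and an adjusted p of 0.40 in edgeR. Without FF sow 10 the interaction was called in none and no NDUF gene stood at an unadjusted p under 0.05, beside 891 of all genes, and NDUFB11 had 0.25 in the lower group. NDUFB11 shares 639 exonic bases with RBM10 on the opposite strand.

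**Figure D4:**
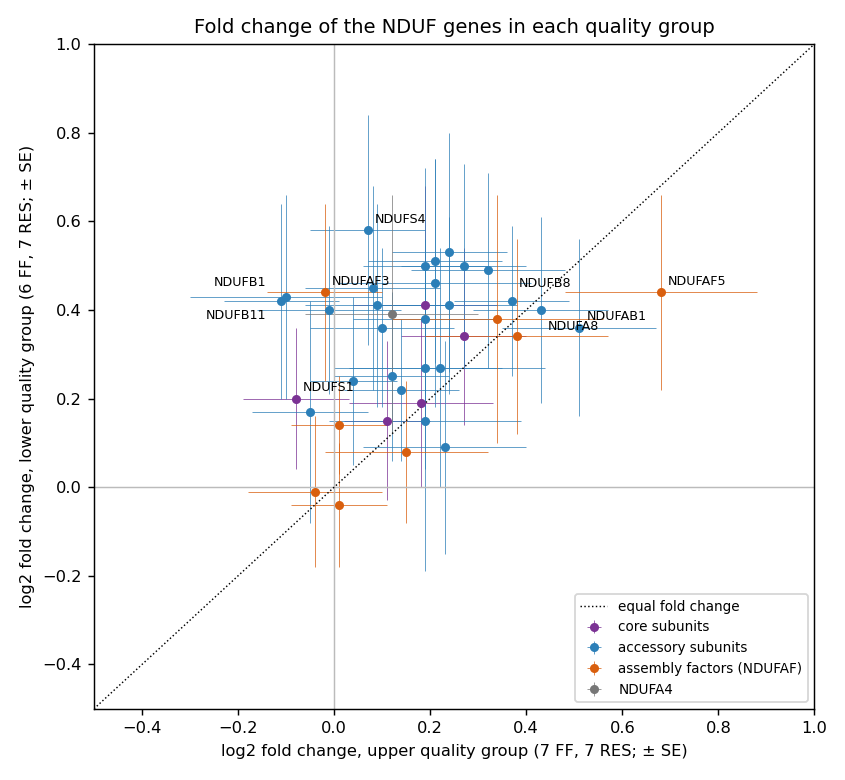
Log2FC of 40 NDUF genes in the upper quality group (horizontal axis) against the lower quality group (vertical axis), bars ± SE from edgeR, with the line of equal change dotted. Most points lie above the line, with subunit medians of 0.19 and 0.39, where the latter was 0.25 without FF sow 10, while NDUFAF5 and NDUFAB1 lie below it.

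Other genes of the respiratory chain were taken from lists. Of 10 complex I assembly factors with other names, 1 rose, ECSIT, at 0.39 (SE 0.13) and an adjusted p of 0.0370 in edgeR, near the 8.29% of all genes called higher, and their median was −0.08. That call held in 16 of 27 fits that left out 1 library, with an adjusted p of up to 0.0708 in edgeR without RES sow 3. The 7 ND genes of mitochondrial DNA, which encode the core of the membrane arm, had a median of 0.08 and a range of −0.10 to 0.31, and none was called by edgeR, DESeq2 or voom or had an unadjusted p under 0.05. In complex II, SDHB, its iron-sulfur subunit, rose by 0.40 (SE 0.10, adjusted p = 0.00835, edgeR), while the median of the 4 subunits was −0.01. SDHC, a membrane anchor of that complex, stood lowest at −0.21 (SE 0.10), uncalled in edgeR, and voom called 1 of the 4 lower.

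Nuclear subunits of complexes III, IV and V had medians of 0.16 (8 genes), 0.34 (8) and 0.29 (11), and all 27 were above 0. Of these, 5 were called higher with edgeR, beside 8.29% of all genes. They were COX8A of complex IV at 0.41 (SE 0.13) and, of the ATP synthase, ATP5MC1 at 0.47 (SE 0.14), ATP5ME at 0.45 (SE 0.13), ATP5MC2 at 0.43 (SE 0.15) and ATP5MC3 at 0.31 (SE 0.10). With 1 library left out, ATP5ME was called in 27 of 27 fits, ATP5MC1 in 26, COX8A in 22, ATP5MC3 in 11 and ATP5MC2 in 10. Among 8 regulators 2 were called, beside 8.29% of all genes. TFAM, which packs and transcribes mitochondrial DNA, rose by 0.35 (SE 0.10, adjusted p = 0.0149, edgeR), and GABPB1, the partner of GABPA, by 0.28 (SE 0.08, adjusted p = 0.0246, edgeR). NRF1 stood at 0.16 (SE 0.08) and YY1 at −0.10 (SE 0.05), both uncalled.

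Most NDUF transcripts are short, and short transcripts as a class were higher in RES GCs. The longest RefSeq transcript was 410 to 5277 bases (median 829) for the NDUF genes and 3683 bases at the median of 10496 tested genes with such a record. Of the 41 NDUF genes, 31 lay among the 1050 shortest, which had up to 1366 bases. Those 1050 genes had a median log2FC of 0.12, with 67.0% above 0 and 14.3% called higher, and the 31 NDUF genes among them had a median of 0.25. Across genes, which are not independent replicates, Spearman's rho of length and log2FC was −0.20 over all 10496 and −0.21 over the 41. The part of length in the NDUF values was not tested.

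Markers of other follicle cells moved the other way. With edgeR 2 of 5 endothelial markers (CDH5, EMCN), 2 of 5 pericyte and stroma markers (PDGFRB, RGS5) and 1 of 6 theca markers (CYP11A1) were lower in RES GCs, beside 666 of all 11384 genes, and none of these markers was at 0 in every library of a group. PDGFRB was called in 12 of 27 fits with 1 library left out and the 4 others in all 27. The endothelial markers had a median sum of 1560 normalized counts in FF (1080 to 2300) and of 1070 in RES GCs (747 to 2280), and the theca markers one of 2710 (1600 to 5160) and 1830 (1030 to 4290). The pericyte and stroma markers summed to 4130 to 10500 (median 6020) and 2990 to 8720 (median 5220). The 3 immune markers summed to 59.5 to 379 (median 140) and 39.4 to 291 (median 98.8), and none was called by edgeR or DESeq2, 1 by voom and 1 at an unadjusted p under 0.05. Their part in the NDUF values was not tested.

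Within each diet, subunit genes mostly varied together between sows, and the NDUFAF genes less so by Pearson's r. Over the 496 pairs of subunits, the median of Pearson's r on normalized counts was 0.72 in FF (quartiles 0.55 and 0.81, n = 13) and 0.60 in RES GCs (0.41 and 0.74, n = 14). Over all pairs of tested genes it was 0.00 in FF and 0.01 in RES. Pairs of NDUFAF genes had medians of 0.02 and 0.23, and pairs of a subunit with an NDUFAF gene 0.24 and 0.40. The 15 pairs of core subunits had 0.34 in FF (0.31 without FF sow 10) and 0.53 in RES GCs. With Spearman's rho in RES GCs, core pairs had a median of 0.35 and NDUFAF pairs one of 0.36, beside 0.60 for all subunits. Subunits paired with nuclear subunits of complexes III, IV and V had medians of 0.74 and 0.64, close to those within complex I, and with the ND genes of mitochondrial DNA −0.01 and 0.29. All of these correlations share libraries and size factors, so they are a description of these sows. Without FF sow 10 the FF median within the subunits was 0.56, that of subunits with NDUFAF genes 0.08, with complexes III to V 0.61 and with ND genes 0.22.

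**Figure D5:**
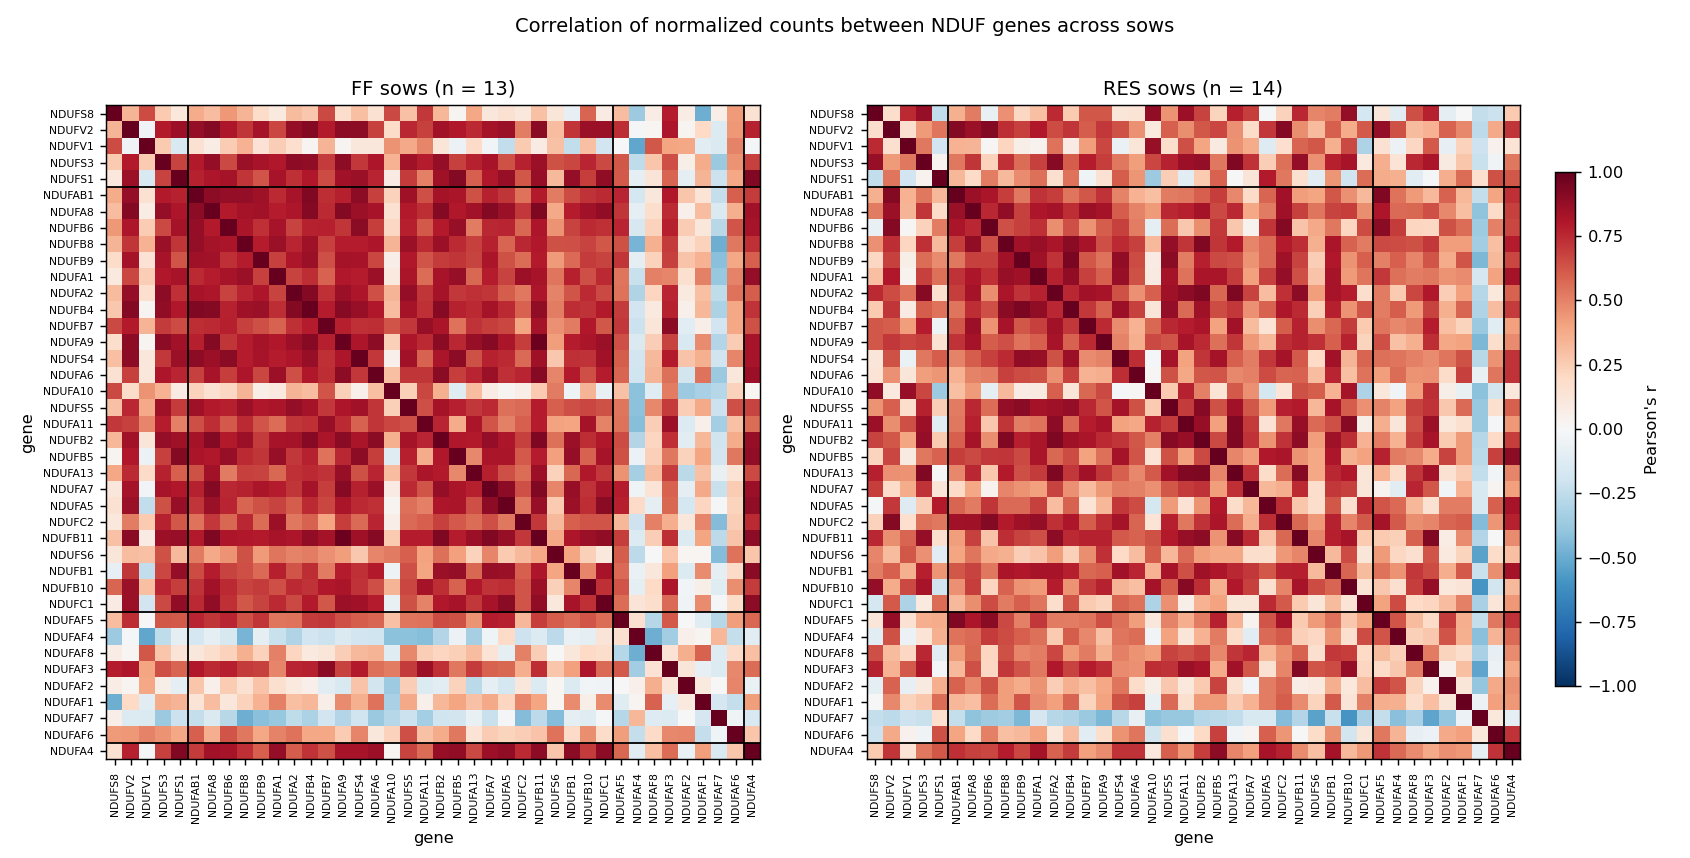
Colour gives Pearson's r of each pair of 40 NDUF genes over the normalized counts of 13 FF sows (left) and 14 RES sows (right), in the order core subunits, accessory subunits, NDUFAF genes and NDUFA4, with black lines between the classes. The subunit blocks are mostly red, with medians of 0.72 and 0.60, and NDUFAF7 forms a pale to blue stripe.

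Not every member followed. The median r of a gene with the other subunits was 0.83 in FF and 0.69 in RES GCs for NDUFA8, and 0.75 and 0.72 for NDUFB8. Among the assembly factors, NDUFAF3 (0.69 and 0.65) and NDUFAF5 (0.62 and 0.51) varied like subunits. The nearest subunit of NDUFAF5 in RES GCs was NDUFAB1, with r = 0.92, and both are among the called genes. NDUFAF7 had medians of −0.23 and −0.29, or −0.14 in FF without sow 10. NDUFAF4 differed in sign, with −0.19 in FF and 0.46 in RES GCs, a difference that was not tested.

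Subunits also differed in how they varied with each other, and single sows weighed on this. NDUFV1 and NDUFS8, which are neighbours on chromosome 2, had r = 0.65 in FF and 0.74 in RES GCs, the latter 0.49 without RES sow 3. NDUFA10, on chromosome 15, had r = 0.66 and 0.89 with NDUFS8 (0.69 in RES without sow 3), and 0.45 and 0.87 with NDUFV1 (0.76 without sow 3). With NDUFB10, NDUFA10 and NDUFS8 had r = 0.83 and 0.88 in RES GCs, which fell to 0.52 and 0.58 without that sow. The median r with the other subunits was 0.15 in FF and 0.34 in RES GCs for NDUFV1, and it was 0.18 without FF sow 10 and 0.04 without RES sow 3. For NDUFA10 these medians were 0.24 and 0.35, against 0.45 and 0.04 without the same sows, and for NDUFS8 0.29 and 0.49, against 0.21 and 0.31. NDUFS1 had 0.76 in FF and 0.24 in RES GCs, and 0.54 and 0.43 without them.

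Correlations were tested for 7 listed pairs of NDUF genes in each diet, 14 in all, with 100000 permutations and adjustment over the 14, and 5 of the pairs are described. NDUFB10 and NDUFB11, both of the membrane arm, had r = 0.86 in FF (permutation p = 0.0008, adjusted p = 0.0044, rho = 0.60 with permutation p = 0.034) and 0.82 in RES GCs (permutation p = 0.00095, adjusted p = 0.0044, rho = 0.59 with permutation p = 0.029). These rested on few sows, as r was 0.41 and 0.38 without the 2 sows farthest from the median, which were 10 and 14 in FF and 3 and 13 in RES. Within the quality groups r was 0.64 and 0.92 in FF and 0.65 and 0.88 in RES GCs, and without FF sow 10 alone it was 0.65 in FF. NDUFC1 and NDUFC2 had r = 0.63 and 0.61, each with an adjusted p of 0.054, and rho of 0.42 (permutation p = 0.15) and 0.64 (permutation p = 0.015). Without the 2 farthest sows r was 0.09 in FF and 0.45 in RES GCs, and without FF sow 10 alone it was 0.24 in FF.

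The 3 remaining pairs did not pass the adjustment. NDUFV1, which binds NADH, had r = −0.04 and 0.16 with its direct partner NDUFV2, and −0.16 and −0.19 with NDUFS1, with rho of −0.04, 0.28, −0.08 and −0.24 and permutation p of 0.33 to 0.91 for both measures. Without the 2 farthest sows, 3 and 5 in RES, r of NDUFV1 and NDUFV2 was −0.27 in FF and 0.53 in RES GCs (permutation p = 0.079), and by quality group the RES values were 0.77 (upper) and −0.21 (lower). The quality groups of RES sows also went apart for the second pair, with r of NDUFV1 and NDUFS1 at 0.72 (upper) and −0.67 (lower). NDUFAF3 and NDUFAF4 had r = −0.34 in FF (permutation p = 0.25, rho = −0.32) and 0.27 in RES GCs (permutation p = 0.35, rho = 0.37). The difference in r between the diets had an adjusted p of 0.66 to 0.96 over the 7 pairs in a permutation test of sow labels.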

How the data were processed

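RNA-seq was analysed for 27 libraries, 1 per sow. The authors deposited raw counts, as whole numbers for each Ensembl gene. The authors cleaned the reads with SOAPnuke, aligned them to Sscrofa11.1 with HISAT2 2.2.1, kept unique alignments with SAMtools 1.16.1, removed PCR copies by their molecular tags with UMI-tools 1.1.4, and counted read pairs on exons with featureCounts 1.6.2 and Ensembl release 110. Their counting named no strand, so that genes sharing bases with one on the other strand are uncertain.

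Symbols came from a table of pig Ensembl identifiers. Of 35670 identifiers, 17467 reached a mean count of 5, and 11422 of these had a symbol. Leaving out 38 small RNAs gave 11384 tested genes. RES was compared with FF in edgeR 4.0.16 (TMM, quasi-likelihood test, R 4.3.3), with calls at an adjusted p under 0.05. The study used DESeq2, which is an alternative here (1.42.0). Each SE was derived from the fold change and its F value. Fitted folds use TMM over the tested genes, whereas printed values use DESeq2's size factors over 17467 identifiers, so ratios of printed means are somewhat larger. Correlations used counts scaled by these factors. The smallest p of 100000 permutations is 1e-05.

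By rule, all called genes, the core subunits and the NDUFAF genes were named, and from other lists those called or at the ends. Further NDUF genes, NRF1 and YY1 were named after their values were seen. The p-values measure the spread between sows. The members, gene lists, pairs and motifs were chosen with earlier results of these data known. The quality groups divide the study's listed read quality at a gap. Alternatives were DESeq2, its size factors, no count filter, filterByExpr, all identifiers, a replicate block, covariates (quality group, RIN, GC percentage of reads), voom of limma 3.58.1 with sample quality weights, leaving out each library, and each quality group alone. Upper-quartile scaling, the lower quality group and the interaction without FF sow 10, single correlations without FF sow 10 or RES sow 3, and leaving out RES sows 3 and 5, which stood apart in read quality, were added after seeing the data. Tests were checked on simulated data. Positions and sequences come from RefSeq's annotation of Sscrofa11.1, matched by symbol for all 41 genes. Of 10 listed pairs, 3 hold a gene not analysed here. Values of 1 gene and its pairs are not reported here, although it stays in the counts and medians. Further tools were scipy 1.17.1, pysam 0.24.0, pandas 2.3.3, numpy 2.4.6 and matplotlib 3.10.9 under Python 3.11.15.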

Additional observations from a re-analysis of the deposited data

How the results depend on the processing

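No NDUF gene was called lower in any fit. Besides the 4 of the main test, the count of called NDUF genes was 7 with the replicate block, 8 with GC percentage as covariate, 12 with voom and sample quality weights, and 0 within the lower quality group, with or without FF sow 10 (8 and 1 at an unadjusted p under 0.05, edgeR). The cause of these differences was not tested. The other planned and added settings gave 4 or 5. Over all genes the calls numbered 1610 with edgeR, 3193 with voom, 1086 with the block and 1 within the lower quality group (0 without FF sow 10). Leaving out 1 library gave 3 to 9. It was 9 without RES sow 7 or RES sow 10, 7 without FF sow 1 or FF sow 3, 6 without RES sow 5, and 3 without RES sow 1, 3, 6 or 9. The same leave-one-out fits put the median log2 fold change at 0.18 to 0.29 for the subunits and 0.13 to 0.20 for the NDUFAF genes. It kept its sign in all settings. Upper-quartile scaling moved the median of all genes to −0.04, with 39 of 41 NDUF genes above 0.

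The replicate numbers do not pair the sows. Over 13 pairs of equal number the correlation of deviations ran from −0.24 to 0.31 (median 0.01), only 1 exceeded 0.1, and no FF sow was nearest to its own number. All 4 genes stayed called in that blocked fit.

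Of the 2 listed pairs past the adjusted threshold in each diet, 1 was left in FF with Spearman's rho, without the 2 farthest sows, and without FF sow 10. In RES, 1 was left with Spearman's rho, with log2 counts and with TMM-scaled counts, and 0 without the 2 farthest sows, where fewer sows enter. With counts centred within each quality group, NDUFC1 and NDUFC2 had an unadjusted permutation p of 0.013 in FF and 0.021 in RES GCs. The median r within subunits was 0.56 in FF without FF sow 10. It lay between 0.60 and 0.80 in FF and between 0.54 and 0.63 in RES in the other settings. Counts under about 50, as in NDUFC2, NDUFAF8 and NDUFS6, limit what could be detected there.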
